A study of Homo sapiens with 16 samples.

Results

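SCD and FASN, the mRNAs of a pair of lipogenic enzymes, are 2 of the 13968 genes with a listed position in reverse-transcription stop tables of HEK293T and HCT116 cells. Every table position that its gene field assigns to SCD or FASN with the biotype protein_coding was taken, which gave 6652 of 719918 positions, 1973 in SCD and 4679 in FASN. The pair was chosen by a measured value, the lower coverage of both transcripts after DKC1 knockdown in the libraries made without CMC, so that contrast is described here and not tested. The tables list positions and not whole transcripts, and a transcript's level was read from the reads that cover its listed positions.

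Fatty acid synthase, the product of FASN, builds palmitate from acetyl-CoA and malonyl-CoA. Stearoyl-CoA desaturase, the product of SCD, puts a double bond into palmitoyl- and stearoyl-CoA and so makes the monounsaturated fatty acids of membranes and triglycerides. Both genes are classic targets of SREBP transcription factors, and both are commonly high in carcinoma cells. DKC1 encodes dyskerin, the pseudouridine synthase of H/ACA ribonucleoproteins, whose best known substrates are ribosomal and spliceosomal RNAs. CMC, a carbodiimide, leaves an adduct on pseudouridine at which reverse transcriptase stops, and Terminator is a 5′ exonuclease that acts on RNA ends bearing a monophosphate.

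The groups, each of 2 replicates, were as follows. HCT116-shDKC1 cells, a human colorectal carcinoma line labelled as carrying a short hairpin against DKC1, were profiled with CMC and Terminator and without CMC. HCT116 cells, labelled wild type, were profiled with CMC and Terminator, with CMC alone and without CMC. HEK293T cells, a human embryonic kidney line labelled wild type, had the same 3 treatments. All RNA was polyadenylated RNA from cultured cells and was fragmented before treatment. No label says that replicates came from separate cultures, so p-values measure only the spread between these libraries, which may be technical. Stop reads and covering reads are counts, whole numbers in the Terminator tables of both HCT116 populations and partly fractional in the others. Library totals were 23200000 and 26900000 reads in HCT116-shDKC1 and 22500000 and 24000000 in HCT116 with CMC and Terminator. Without CMC they were 29600000 and 29500000 in HCT116-shDKC1 and 27300000 and 31300000 in HCT116. HEK293T totals lay between 14900000 and 19100000, and the HCT116 libraries with CMC alone were the shallowest at 8700000 and 10000000.

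The knockdown itself could hardly be checked. No DKC1 position appeared in every Terminator table of the knockdown and its wild type. The HCT116-shDKC1 tables listed 2 and 1 DKC1 positions, with medians of 5.5 and 2 covering reads without CMC, against 2 and 3 positions with medians of 12 and 14 in HCT116. Each HCT116-shDKC1 and HCT116 table listed 7 of 10 epithelial marker genes, with summed coverage in the Terminator libraries of 2629 and 3407 RPM (reads scaled to a common library total) in HCT116-shDKC1 and 3283 and 3987 in HCT116. VIL1 and LGALS4 were listed in none of these tables. Of 6 HEK293T marker genes, the HEK293T tables listed 4 and 2 with CMC and Terminator and 2 and 2 with CMC alone. VIM was in each of them, and PAX2 and LHX1 were in none. The first HCT116-shDKC1 table listed GATA2 and PAX2, at 2 positions. The HEK293T tables listed at most 2 epithelial genes, and fibroblast and leukocyte markers had no listed position in any table. The part of these differences in the results below was not tested.

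The SCD transcript used for annotation, ENST00000370355.2, spans chr10:100347124-100364834 on the plus strand of hg38. It has 6 exons and 5362 bases, of which 1080 are coding and 3901 are 3′ UTR. The FASN transcript, ENST00000306749.3, spans chr17:82078333-82098332 on the minus strand, with 43 exons and 8565 bases, of which 7536 are coding. The listed SCD positions fell mostly in the 3′ UTR (1280, beside 514 in coding sequence and 179 in the 5′ UTR). The listed FASN positions fell mostly in coding sequence (4343, beside 297 in the 3′ UTR and 35 in the 5′ UTR), and 4 lay outside the exons. The tables' base matched the GENCODE 29 transcript at every position inside an exon.

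Both transcripts had fewer listed positions in the knockdown. SCD had 166 and 153 listed positions in the HCT116-shDKC1 Terminator tables, against 561 and 491 in the HCT116 Terminator tables. FASN had 269 and 318 in HCT116-shDKC1 and 570 and 548 in HCT116. As a share of each table, SCD took 0.145% and 0.154% in HCT116-shDKC1 and 0.495% and 0.476% in HCT116, while the tables themselves were of like size. All listed positions had 5 or more stop reads in the treated library, 1 or more in the control and a stop ratio no lower with treatment, so a transcript with less coverage loses positions by that rule alone. Among SCD's listed positions 46.4% to 52.4% were U in HCT116-shDKC1 and 45.0% to 45.5% in HCT116, in tables with 32.1% to 32.7% U overall.

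Levels were compared on the positions shared by the 4 Terminator tables of the HCT116 populations, 30 in SCD and 59 in FASN, as covering reads per position in RPM. In the Terminator libraries, which did not choose the pair, SCD stood at 2.67 and 2.69 in HCT116-shDKC1 and at 4.98 and 4.92 in HCT116. The mean was 2.68 ± 0.0122 in HCT116-shDKC1 and 4.95 ± 0.0405 in HCT116 (SD, n = 2 each), so the knockdown level was 54.2% of the wild-type level. Both knockdown libraries lay below both wild-type libraries, and the replicates of each group nearly coincided. FASN stood at 1.71 and 1.81 in HCT116-shDKC1, against 2.59 and 2.59 in HCT116, with means of 1.76 ± 0.0698 and 2.59 ± 0.00122 (SD, n = 2 each). The FASN knockdown level was 68.1% of the wild-type level, and again the groups did not overlap. The share of all genes whose libraries separate in this way was not computed, so the lack of overlap singles out neither gene. In bulk libraries, fewer cells of a type and less RNA per cell cannot be told apart. These values rest on 1863 and 2171 covering reads of SCD in HCT116-shDKC1 and 3359 and 3543 in HCT116, and on 2347 and 2874 covering reads of FASN in HCT116-shDKC1 and 3437 and 3665 in HCT116.

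Neither difference passed the test. With edgeR's quasi-likelihood test over 2305 genes and TMM scaling, SCD differed by -0.85 ± 0.19 on the log2 scale (SE) with a Benjamini-Hochberg adjusted p of 0.0679, and FASN by -0.52 ± 0.19 with an adjusted p of 0.999. The same fit called 0.0434% of genes lower and 0.0434% higher, 1 gene in each direction, CHPF lower and RPL24 higher. The SCD call turned on settings: its adjusted p was 0.00661 in edgeR with library totals as the scaling, 0.0188 in DESeq2, which called 0.0868% of genes lower, and 0.00260 in edgeR with the replicate number as a block. It was 0.00215 without the first HCT116-shDKC1 library and 0.000871 without the second, and 1.00 and 0.998 without the first and the second HCT116 library, all in edgeR. Each of these fits set 1 library against 2, so the spread within groups came from the remaining pair and the lone library was assumed to vary like it. The share of all genes called is given only for edgeR with TMM and for DESeq2. Without it, the p-values of the other settings do not single out SCD. FASN passed under none of these settings, with adjusted p between 0.0889 and 1.00 in edgeR and DESeq2. An exact permutation test of 2 libraries against 2 could not give a p below 0.333.

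**Figure D1:**
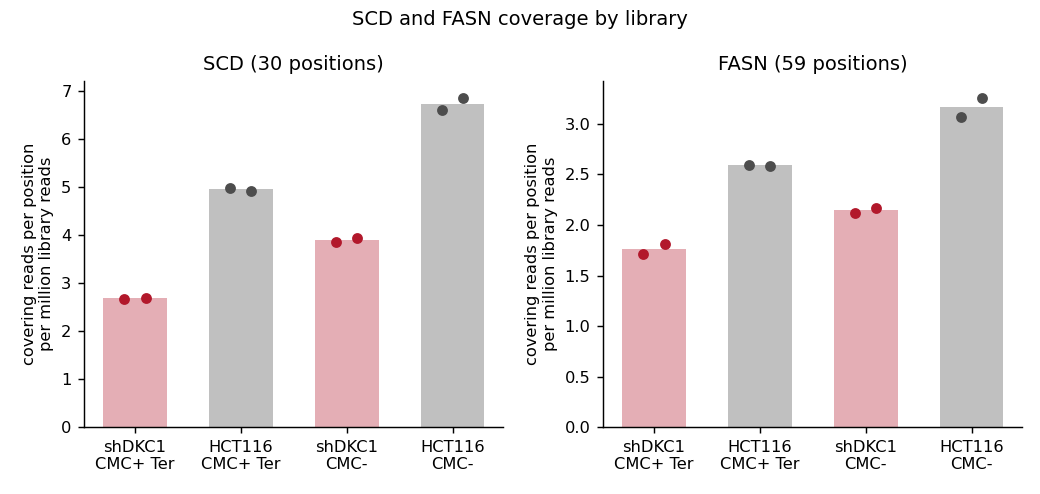
Covering reads per position, in RPM (vertical axis, from 0), of SCD and FASN in each library of HCT116-shDKC1 and HCT116, each point 1 library and each bar the mean of 2; Ter stands for Terminator. In both kinds of library the 2 HCT116-shDKC1 points of each gene lie below the 2 HCT116 points, an order that was not set against all genes.

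In the libraries without CMC, the contrast that chose the pair, SCD stood at 3.85 and 3.93 in HCT116-shDKC1 and 6.61 and 6.86 in HCT116, and the knockdown level was 57.8% of the wild-type level. FASN stood at 2.12 and 2.17 in HCT116-shDKC1 and 3.07 and 3.26 in HCT116, at 67.8% of the wild-type level. The fitted differences were -0.83 ± 0.12 for SCD and -0.60 ± 0.12 for FASN (log2, SE). The labels do not say whether the Terminator library of a replicate and its library without CMC share an RNA preparation, so it is not known whether these values are independent of the Terminator values. From low to high, the SCD group means were 2.68 in HCT116-shDKC1 with Terminator, 3.89 in HCT116-shDKC1 without CMC, 4.95 in HCT116 with Terminator and 6.74 in HCT116 without CMC. FASN had the same order, and no neighbouring groups overlapped for either gene, which was not set against all genes.

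The difference was present from the 5′ UTR to the 3′ UTR of SCD and through the coding sequence and 3′ UTR of FASN. In the Terminator libraries both HCT116-shDKC1 libraries lay below both HCT116 libraries at 30 of 30 SCD positions and at 53 of 59 FASN positions, where 7.71% of all 30328 compared positions did. Without CMC this held at 30 of 30 SCD and 55 of 59 FASN positions, against 8.22% of all positions, a count that the choice of the pair already set and from which nothing is read. The positions are not independent, since a read covers many of them: 28 of the 30 SCD positions and 57 of the 59 FASN positions lie within 250 bases of another. The median log2 difference over SCD positions was -0.89 in the Terminator libraries (range -1.32 to -0.57), against 0.04 over all positions. For FASN it was -0.56 (range -1.01 to -0.14).

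By region, the SCD medians in the Terminator libraries were -0.96 over 10 positions of the 5′ UTR, -0.93 over 6 coding positions and -0.81 over 14 positions of the 3′ UTR. FASN medians were -0.55 over 50 coding positions and -0.56 over 8 positions of the 3′ UTR. The smallest SCD difference was at the position nearest the 5′ end, a U 270 bases before the start codon at chr10:100347235. There the libraries without CMC held 109 and 108 covering reads in HCT116-shDKC1 and 113 and 130 in HCT116. At the position of highest SCD coverage, a U 73 bases before the start codon, they held 182 and 209 reads in HCT116-shDKC1 and 306 and 375 in HCT116. FASN's only 5′ UTR position, an A 126 bases before the start codon, had 9 and 5 covering reads without CMC in HCT116-shDKC1 and 8 and 4 in HCT116, too few to compare.

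**Figure D2:**
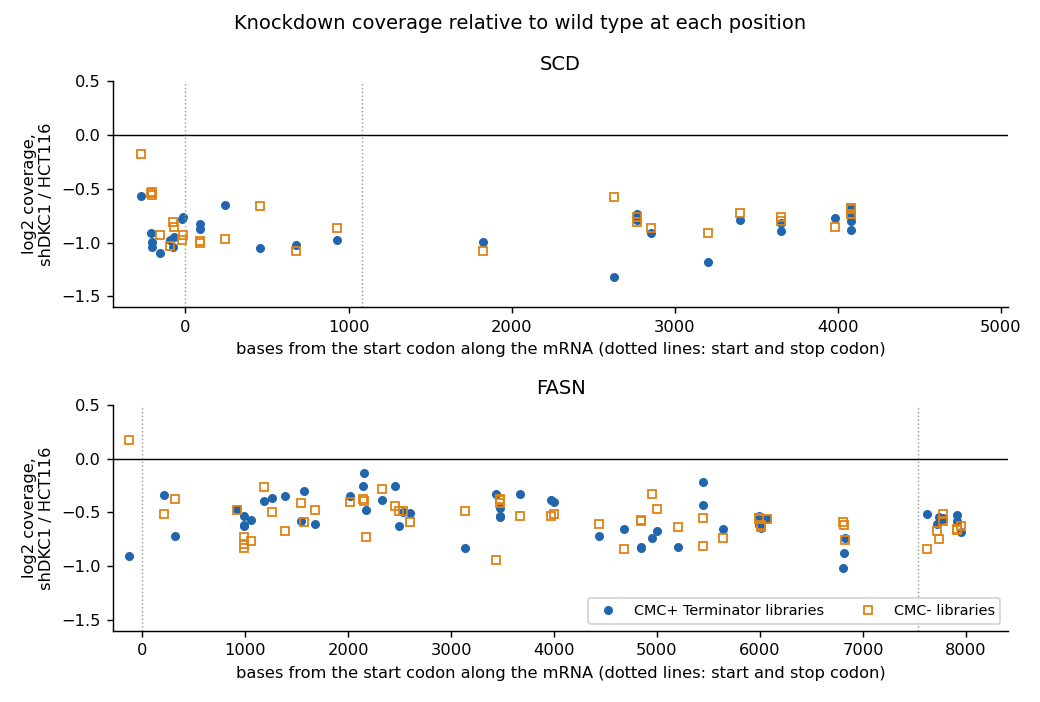
Log2 difference in covering reads in RPM, HCT116-shDKC1 over HCT116 (vertical axis), at the positions of SCD and FASN listed in all 4 Terminator tables, by distance in bases from the start codon (horizontal axis; dotted lines mark the start and stop codons). All 30 SCD points of the Terminator libraries lie between -1.32 and -0.57, and the FASN points between -1.01 and -0.14.

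Taking positions listed in both tables of a replicate number, 91 and 93 in SCD, gave SCD differences of -0.96 and -0.86 in the Terminator libraries and FASN differences of -0.57 and -0.48 over 129 and 160 positions. This set was chosen after the data were seen. SCDP1, a processed pseudogene of SCD, had 1 position in the 4 tables, with 1.45 and 1.55 RPM in HCT116-shDKC1 Terminator libraries and 3.17 and 3.33 in HCT116 (log2 -1.08 ± 0.26, SE, edgeR adjusted p 0.143). How reads that match a gene and its copy were counted is not given in the sources used here, so SCDP1 and SCD values may share reads.

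Other genes of fatty acid and triglyceride synthesis were largely unmeasured on this basis. Of 33 listed genes, 7 were tested in the Terminator libraries, and edgeR called none of them in either direction, with 0.0434% of all genes called each way. Of these, SCD and FASN had an unadjusted p under 0.05, and DESeq2 called SCD. The fitted values of the 5 besides SCD and FASN were all below 0, as were 48.5% of all tested genes. Their median was -0.18, against 0.01 for all genes. They rest on 1 to 4 positions each, and ACSL5 had 9 and 11 reads in HCT116-shDKC1 and 9 and 13 in HCT116. SLC25A1, the mitochondrial citrate carrier, differed by -0.40 ± 0.31 and ACLY, which cleaves citrate to acetyl-CoA, by -0.10 ± 0.24 (log2, SE). ACLY was measured on 4 positions, with 93 and 106 Terminator reads in HCT116-shDKC1 and 102 and 101 in HCT116. In the libraries without CMC the 4 measured genes besides SCD and FASN had a median of 0.38, so their sign differed between the kinds of library. ACACA, which makes malonyl-CoA, had no position listed in all 4 tables.

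Of 29 genes of cholesterol synthesis and the SREBP pathway, 4 were tested and edgeR called none with Terminator, nor did any have an unadjusted p under 0.05. All 4 were below 0 in the Terminator libraries, with a median of -0.35, and 3 of 4 were below 0 without CMC, with a median of -0.22. FDFT1, which encodes squalene synthase, differed by -0.38 ± 0.25 with Terminator and by -0.58 ± 0.26 without CMC. FDPS, which makes farnesyl diphosphate, differed by -0.46 ± 0.32 with Terminator and by 0.29 ± 0.35 without CMC, so its sign differed between the kinds of library. SREBF1, which encodes the SREBP that drives fatty acid synthesis genes, differed by -0.03 ± 0.24 with Terminator and -0.10 ± 0.21 without CMC, measured on 4 positions. SREBF2, which encodes the SREBP of cholesterol synthesis, differed by -0.32 with Terminator and -0.33 without CMC. INSIG1 and HMGCS1 had no position listed in all 4 tables.

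**Figure D3:**
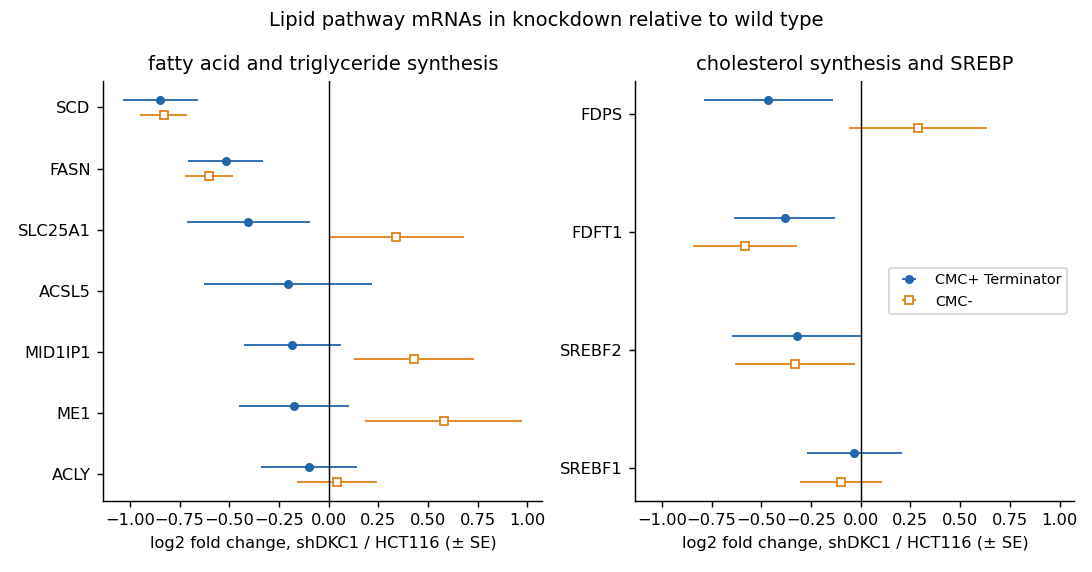
Log2 difference in transcript level, HCT116-shDKC1 over HCT116, with its SE (horizontal axis), for the measured genes of fatty acid and cholesterol synthesis in the Terminator libraries and in the libraries without CMC. SCD at -0.85 and FASN at -0.52 with Terminator have the smallest error bars relative to their size, and most other genes rest on 1 position.

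Over the 8 HCT116-shDKC1 and HCT116 libraries and 1205 genes with a mean of at least 100 covering reads, the level pattern most like SCD's was that of FASN, with a Pearson r of 0.966. HSPB1, which encodes a small heat shock protein, followed at 0.950, then DCBLD2 at 0.938, CALR at 0.932 and CHPF at 0.910. The patterns most like FASN's were those of DCBLD2 at 0.978, CHPF at 0.975, SCD at 0.966, CALR at 0.960 and KRT19 at 0.947. These describe 8 libraries in 4 groups that share treatments, and SCD and FASN were chosen together, so they carry no test. The log2 knockdown differences with Terminator were -0.59 for HSPB1, -0.36 for DCBLD2, -0.50 for CALR, -1.20 for CHPF and -0.53 for KRT19. Those of FASN and SCD were -0.52 and -0.85, so a lower level was not particular to the pair.

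Stops were examined next, since the tables were made to find positions where CMC raises them. The 21-base windows below, from the tables' own sequence (hg38, transcript strand, with T for U), show the positions on which these results turn, with the listed base in capitals. Positions are counted from the A of the start codon.
SCD U 927, coding, chr10:100360770-100360790: atgactactcTgccagtgagt
SCD U 4082, 3′ UTR, chr10:100363925-100363945: cagaatccctTtgcacctgag
SCD A 89, coding, chr10:100348115-100348135: gtcctgcagaAtggaggagat
FASN U 5641, coding, chr17:82083030-82083050: caagaccttcTgcccggccca
FASN U 986, coding, chr17:82092488-82092508: aagtccaacaTggggcacccg
FASN U 3476, coding, chr17:82086500-82086520: gggctgaagaTggtggtgccc
FASN A -126, 5′ UTR, chr17:82098229-82098249: gccggcctagAgggagccaga
Read on the transcript strand, none of these listed U lies in the TRUB1 motif GTTCNANNC or the PUS7 motif TNTAG or TNTAA. Across all tables, 0 of 650 U positions of SCD and 0 of 1080 of FASN lay in the TRUB1 motif, against 313 of 227938 in the series (0.137%). The PUS7 motif was at 14 SCD positions (2.15%) and 4 FASN positions (0.370%), against 1.25% of all U positions. The sources used here do not say whether the listed base is the modified base or the base where the read stops. The motif counts therefore hold for the listed base only.

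A shared position was tested where 2 or more of the 8 libraries held at least 10 stop reads. Of the 89 shared positions 49 were tested, 26 of 30 in SCD and 23 of 59 in FASN, and 32 of the 49 reached that number only with the Terminator libraries counted. Such a position was admitted through the group in which it is high, so its fitted difference is given below as a description, with no p. Listing had also already required a stop ratio no lower with treatment at every position, so a p given for any other position is conditional on that.

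SCD U 927, in the last exon and at chr10:100360780, stopped far more reads with CMC and Terminator than without CMC in both cell populations. In HCT116-shDKC1 9 of 46 and 14 of 55 covering reads stopped there, or 19.6% and 25.5%, against 2 of 106 and 3 of 88 without CMC, or 1.89% and 3.41%. The 95% Wilson intervals of these shares, which cover counting error only, ran from 10.7% to 33.2% and 15.8% to 38.3% with CMC and Terminator and from 0.519% to 6.62% and 1.17% to 9.55% without CMC. In HCT116 the shares were 25.0% and 24.0% with CMC and Terminator and 3.82% and 3.61% without CMC, and no Terminator value overlapped a value without CMC. It reached 10 stop reads in Terminator libraries alone. The fitted difference against coverage was 3.08 ± 0.38 in HCT116-shDKC1 and 2.69 ± 0.26 in HCT116 (log2, SE), and by library totals 2.37 in HCT116-shDKC1 and 2.10 in HCT116. The interaction of knockdown with the joint response to CMC and Terminator was 0.27 ± 0.48 by library totals and 0.39 ± 0.51 against coverage (log2, SE). For the same reason it is a description, and nothing is read from it. The knockdown was not profiled with CMC alone, so the part of Terminator cannot be separated.

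SCD U 4082, in the 3′ UTR at chr10:100363935, was the U with the highest stop share of SCD. It stood at 32.4% and 37.0% in HCT116-shDKC1 and 30.5% and 32.8% in HCT116 with CMC and Terminator. Without CMC it already stood at 14.1% and 11.3% in HCT116-shDKC1 and at 16.5% and 7.27% in HCT116. It reached 10 stop reads in every library. By library totals its stops rose by 1.29 ± 0.26 in HCT116-shDKC1 (edgeR adjusted p 0.00118) and by 1.44 ± 0.22 in HCT116 (edgeR adjusted p 0.000152). With TMM scaling the rises were 0.85 ± 0.26 in HCT116-shDKC1 and 0.96 ± 0.22 in HCT116, under the fold of 2 that a call needed. U 4082 was also named for its high Terminator share, which enters these p-values. It lies in a run of neighbouring listed positions, and the U next to it, 4081, rose against coverage by 1.59 ± 0.30 in HCT116-shDKC1 and 1.67 ± 0.25 in HCT116 on partly the same reads. At these depths the Wilson intervals of the Terminator shares spanned 24.4% to 46.8% in HCT116-shDKC1 and 23.7% to 39.9% in HCT116.

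SCD A 89, a coding position at chr10:100348125, was the member with the lowest unadjusted p by library totals for a difference in response between the populations. It stood at 19.0% and 23.6% with CMC and Terminator in HCT116-shDKC1, against 1.45% and 2.90% without CMC. In HCT116 it stood at 12.5% and 9.21%, against 4.69% and 3.50% without CMC. It too reached 10 stop reads in Terminator libraries alone. By library totals the fitted difference was 2.94 ± 0.52 in HCT116-shDKC1 and 1.02 ± 0.40 in HCT116, and against coverage 3.23 ± 0.46 in HCT116-shDKC1 and 1.40 ± 0.35 in HCT116 (log2, SE). The interaction was 1.91 ± 0.71 by library totals and 1.84 ± 0.64 against coverage (log2, SE), and it was not called. A 89 was named for this interaction and admitted through Terminator libraries, so the value is a description only. The HCT116-shDKC1 controls held 1 and 2 stop reads there.

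FASN U 5641, coding and at chr17:82083040, was the U with the highest stop share of FASN in HCT116. It stood at 25.0% and 23.3% in HCT116-shDKC1 and at 39.5% and 31.9% in HCT116 with CMC and Terminator, against 11.1% and 6.67% in HCT116-shDKC1 and 9.86% and 4.26% in HCT116 without CMC. Both knockdown Terminator values lay below both wild-type values. Their Wilson intervals, 12.7% to 43.4% and 11.8% to 40.9% in HCT116-shDKC1 and 25.6% to 55.3% and 20.4% to 46.2% in HCT116, overlap. FASN U 5641 was named for its high HCT116 share, so this order is a description and no result. It reached 10 stop reads in the HCT116 Terminator libraries alone. The fitted difference against coverage was 1.41 ± 0.40 in HCT116-shDKC1 and 2.35 ± 0.31 in HCT116 (log2, SE), and by library totals 0.87 in HCT116-shDKC1 and 1.75 in HCT116. The interaction against coverage, drawn from the same values, was -0.94 ± 0.52 (log2, SE), and it too is a description.

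FASN U 986, at chr17:82092498, had the highest share of a FASN U in HCT116-shDKC1, at 27.3% and 43.2%, with 28.2% and 30.8% in HCT116. The G at 988 had 25.0% and 30.6% in HCT116-shDKC1 and 22.2% and 32.9% in HCT116, and its fitted difference by library totals was 2.38 ± 0.36 in HCT116-shDKC1 and 1.71 ± 0.27 in HCT116 (log2, SE). On the same scale FASN C 5991 differed by 1.74 ± 0.33 in HCT116-shDKC1 and 1.67 ± 0.26 in HCT116, and the 3′ UTR A at 7916 by 2.08 ± 0.42 in HCT116-shDKC1 and 2.08 ± 0.36 in HCT116. All 4 of these positions met the filter only with the Terminator libraries counted.

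FASN A -126, at chr17:82098239, shows how library-total scaling and coverage can part. There 11 of 14 and 10 of 14 covering reads stopped in HCT116-shDKC1 with CMC and Terminator, or 78.6% and 71.4%, and 20 of 24 and 18 of 25 in HCT116, or 83.3% and 72.0%. Without CMC the shares were already 44.4% and 60% in HCT116-shDKC1 and 62.5% and 50% in HCT116, on 9 and 5 covering reads in HCT116-shDKC1 and 8 and 4 in HCT116. In HCT116 the fitted difference was 2.72 ± 0.34 by library totals and 0.43 ± 0.35 against coverage (log2, SE), at a position that also met the filter through Terminator libraries alone.

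Over the 49 tested positions the counts of calls describe the positions admitted and are no support for a general rise. Scaled to library totals, edgeR called 20 higher and 0 lower in HCT116-shDKC1, where it called 24.3% of all tested positions higher and 0.176% lower. In HCT116 it called 23 higher and 0 lower, where 26% of all were called higher and 0.0803% lower. Against coverage 31 were called higher in HCT116-shDKC1, where 19.5% of all positions were, and 32 in HCT116, where 24.8% were, and 0 of the 49 were lower, as were 0% of all positions. Of the 17 positions that met the filter without the Terminator libraries, 3 were called higher by library totals in HCT116-shDKC1 and 3 in HCT116, where 19.5% and 20.8% of all such positions were. Against coverage 8 of the 17 were called in HCT116-shDKC1 and 7 in HCT116, where 14.2% and 19.3% of all such positions were. With TMM scaling, which moves the median of all positions to -0.05 in HCT116-shDKC1 and -0.04 in HCT116 (0.39 and 0.45 by library totals), 10 of the 49 were called in HCT116-shDKC1 (11.7% of all) and 12 in HCT116 (12.2% of all), and 0 of the 17 in either. DESeq2 gave 2 of the 49 an adjusted p and called 0, while it called 6.49% of all positions higher in HCT116-shDKC1 and 6.16% in HCT116. By library totals, 15 positions were called in both populations, 75% of the HCT116-shDKC1 calls and 65.2% of the HCT116 calls. Over all 26153 tested positions 20.9% were called in both, 85.5% of the HCT116-shDKC1 calls and 80.3% of the HCT116 calls. Against coverage 25 of the 49 were called in both, 80.6% of the HCT116-shDKC1 calls and 78.1% of the HCT116 calls, where 15.3% of all positions were, 78.3% and 61.6% of the calls.

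By listed base, which may not be the modified base, the counts turned on the scaling. By library totals, 4 of 22 tested U and 16 of 27 other bases were called higher in HCT116-shDKC1, where 17.9% of all tested U and 28% of all other bases were. In HCT116 8 of 22 U and 15 of 27 others were called, where 20% of all U and 29.4% of all others were. Against coverage 13 of 22 U and 18 of 27 others were called in HCT116-shDKC1, where 21.7% and 18.2% of all were, and 14 of 22 U and 18 of 27 others in HCT116, where 27% and 23.5% were. The median stop share over SCD positions was 16.8% and 14.5% with CMC and Terminator and 5.09% and 3.77% without CMC in HCT116-shDKC1. In HCT116 it was 14.2% and 13.2% with CMC and Terminator and 4.75% and 4.22% without CMC. FASN medians with CMC and Terminator were 19.2% and 15.6% in HCT116-shDKC1 and 14.5% and 14.3% in HCT116. Over all positions the medians with CMC and Terminator were 4.64% to 5.62%, but there median coverage was 303 and 406 reads in HCT116-shDKC1, against 59.5 and 68 for SCD. A position with low coverage needs a higher stop share to reach the 5 treated stop reads of the listing.

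The interaction between knockdown and the joint response to CMC and Terminator was called at 0 of the 49 positions by edgeR. An unadjusted p under 0.05 was found at 1 position in edgeR, and DESeq2 gave 0 calls. Of all tested positions 0% were called higher and 0% lower. The median interaction over the 49 was near 0, and single values ran from -0.95 to 1.91, so differences of that size were not resolved at this depth.

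**Figure D4:**
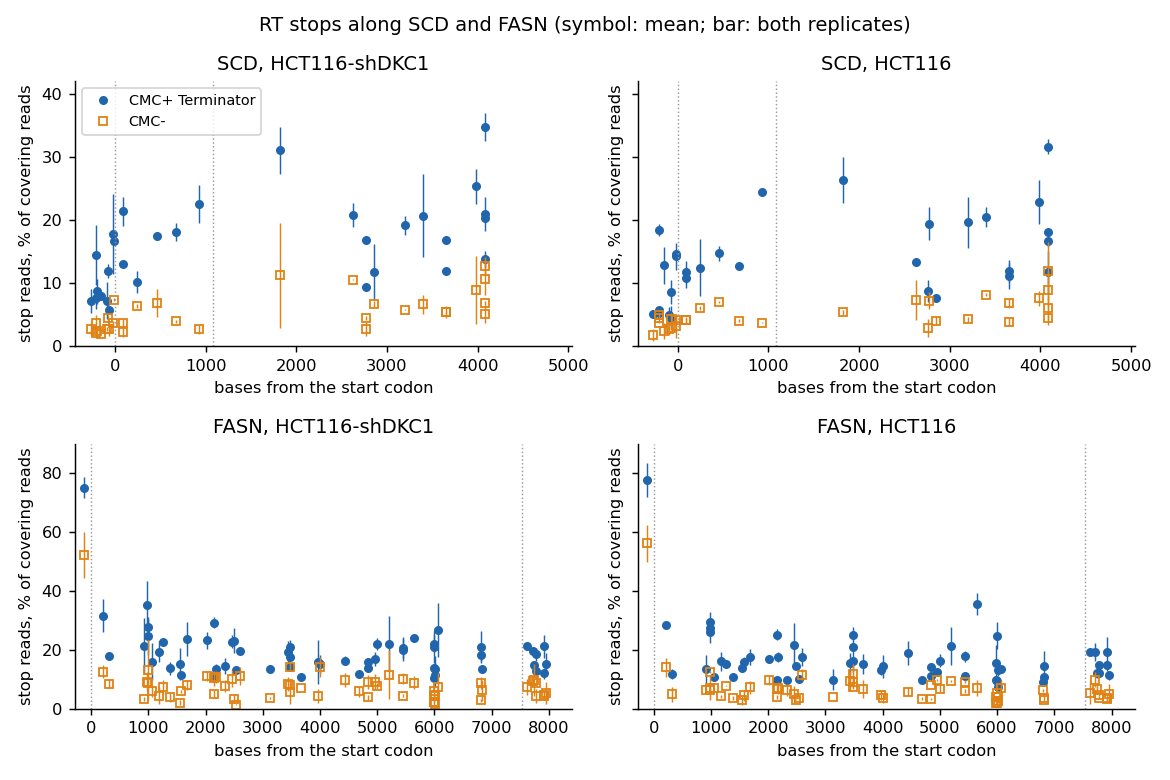
Stop reads as a percent of covering reads (vertical axes, from 0, with separate scales for SCD and FASN) at the 30 SCD and 59 FASN positions listed in all 4 Terminator tables, by distance in bases from the start codon (horizontal axes), with HCT116-shDKC1 left of HCT116. Symbols are means of 2 replicates, bars join the replicates and dotted lines mark the start and stop codons; at SCD U 927 the Terminator values lie between 19.6% and 25.5% and those without CMC between 1.89% and 3.82%.

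In HEK293T cells FASN was the far more widely listed transcript. FASN had 1981 and 1941 listed positions in the Terminator tables and 1331 and 1843 in the tables with CMC alone, while SCD had 287 and 260 in the Terminator tables and 201 and 307 with CMC alone. On positions listed in all 4 tables, FASN (192 positions) stood at 7.48 and 7.63 RPM with CMC and Terminator, 4.68 and 5.80 with CMC alone and 5.01 and 6.38 without CMC. The Terminator libraries lay above the others, which overlapped. SCD (12 positions) stood at 4.35 and 4.09 with CMC and Terminator, 3.56 and 3.73 with CMC and 3.62 and 4.39 without CMC. These tables hold other positions and were made separately, so they are set beside the HCT116 values only as levels. In the HCT116 tables with CMC alone, SCD stood at 15.0 and 14.5 RPM over 376 positions and FASN at 9.27 and 9.30 over 344. These too rest on another set of positions and on shallower libraries, so they cannot be compared with the other HCT116 levels.

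CMC alone gave no call in HEK293T, a count from which nothing is read. Of 204 positions listed in all 4 tables, 102 were tested, 99 of 192 in FASN and 3 of 12 in SCD. With CMC against without, edgeR called 0 of the 102, and 3 had an unadjusted p under 0.05. Of all positions 0.465% were called higher and 0% lower, so few that 0 of 102 does not set these genes apart. In addition, 89 of the 102 met the filter only with the Terminator libraries counted, which are not part of this comparison. Those 89 had too few stop reads in the other libraries to be admitted by them alone. DESeq2 gave none of them an adjusted p. The median difference was 0.45, against 0.14 over all positions.

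With Terminator against without CMC, edgeR called 74 positions higher in HEK293T by library totals, 72 in FASN and 2 in SCD, where it called 33.4% of all positions higher. Of the 102 tested positions, 89 met the filter only with the Terminator libraries counted. Of the other 13, 4 were called by library totals, where 27.8% of all such positions were, and 1 against coverage, where 10.3% were. Over the 102, 12 were called higher against coverage, all in FASN, where 12.3% of all positions were, and with TMM scaling 0 were, where 1.96% were (the lowest adjusted p was 0.0543, and 17 had an unadjusted p under 0.05). The share of FASN reads was itself higher in the Terminator libraries, as given above. Leaving out either Terminator library left 12 calls of only 39 tested positions, and leaving out the first or the second library without CMC left 25 of 101 and 36 of 102. With Terminator against CMC alone, 25 were called higher by library totals, all in FASN, where 23.6% of all positions were. Against coverage 0 were in edgeR, where 0.897% of all positions were called, with 4 at an unadjusted p under 0.05. With TMM scaling 0 were called higher and 1 SCD position fell, by 1.58 on the log2 scale, where 3.66% of all positions were called lower.

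FASN U 6817, at chr17:82080701 in exon 39, was named for its rank by p in HEK293T, a rank that is a description only. It stood at 18.8% and 17.5% with CMC and Terminator, 8.28% and 7.96% with CMC and 7.58% and 5.73% without CMC. The fitted difference against coverage was 1.45 ± 0.14 over the libraries without CMC, while CMC alone differed from no CMC by 0.32 ± 0.19 (log2, SE). FASN C 5749 stood at 30.6% and 18.5% with CMC and Terminator, 13.8% and 9.93% with CMC and 6.10% and 8.33% without CMC, and differed against coverage by 1.79 ± 0.29. Both positions met the filter only with the Terminator libraries counted. SCD U 333, at chr10:100352388, stood at 28.1% and 24.3% with CMC and Terminator, 11.9% and 12.3% with CMC and 4.57% and 8.81% without CMC, but on under 50 covering reads a library, and had too few stop reads to be tested.

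Between the cell lines, 4 FASN positions and 0 SCD positions were listed in all 8 of the joined tables. At FASN U 3476, chr17:82086510, stops with CMC and Terminator were 23.3% and 18.8% in HCT116-shDKC1, 27.9% and 22.2% in HCT116 and 24.1% and 23.1% in HEK293T. Without CMC they were 1.67% and 9.43% in HCT116-shDKC1, 10.8% and 7.41% in HCT116 and 12.2% and 8.62% in HEK293T. It reached 10 stop reads in 2 HEK293T libraries without Terminator. In HEK293T its stops rose against coverage by 1.15 ± 0.20 with Terminator over no CMC (edgeR adjusted p 0.0194). U 3476 was named for its high HEK293T Terminator share, which enters this p. With TMM scaling 0 of the 102 tested HEK293T positions were called in that comparison. With CMC alone the stops at U 3476 stood at 14.5% and 8.83% in HEK293T. FASN A 2149 had 31.1% and 27.3% in HCT116-shDKC1, 23.4% and 26.9% in HCT116 and 15.0% and 11.1% in HEK293T with CMC and Terminator. Without CMC it had 7.69% and 13.0% in HCT116-shDKC1, 8.14% and 5.22% in HCT116 and 4.61% and 3.95% in HEK293T. The other two positions had smaller Terminator shares in each cell population. FASN C 3665 had 10.9% and 10.9% in HCT116-shDKC1, 18.8% and 11.7% in HCT116 and 9.66% and 9.75% in HEK293T with CMC and Terminator. Without CMC it had 6.90% and 6.90% in HCT116-shDKC1, 3.81% and 9.80% in HCT116 and 7.66% and 6.66% in HEK293T. FASN U 6828 had 13.3% and 13.5% in HCT116-shDKC1, 11.5% and 9.72% in HCT116 and 8.41% and 10.5% in HEK293T with CMC and Terminator. Without CMC it had 9.86% and 2.78% in HCT116-shDKC1, 2.86% and 2.96% in HCT116 and 4.02% and 6.27% in HEK293T. Listing in every table required a ratio no lower with treatment than in its control, so the direction at these 4 positions is no result.

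**Figure D5:**
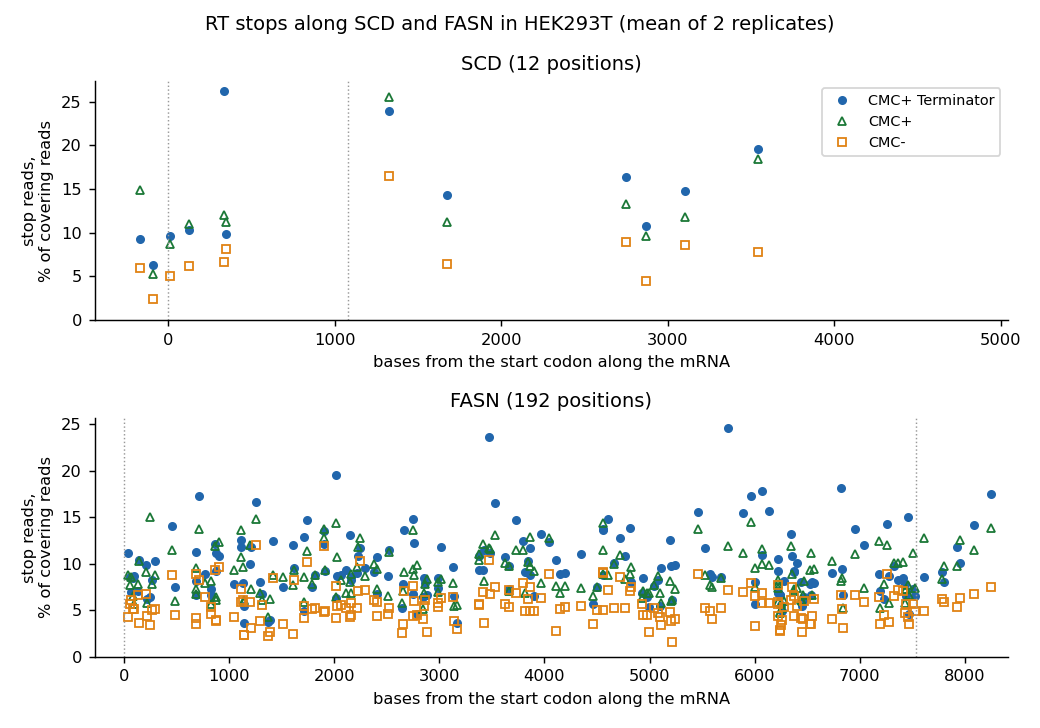
Mean stop reads of 2 replicates as a percent of covering reads (vertical axes, from 0) at the 12 SCD and 192 FASN positions listed in all 4 HEK293T tables, by distance in bases from the start codon (horizontal axes), for CMC with Terminator, CMC alone and no CMC. Dotted lines mark the start and stop codons, and among the FASN positions U 3476 (24.1% and 23.1% in the Terminator libraries) and C 5749 (30.6% and 18.5%) are the highest.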

How the data were processed

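Stop reads and covering reads per position were taken from 10 deposited tables of 16 libraries, each setting a treated library beside a control without CMC. The submitters' processing notes name cutadapt 2.8, STAR (version not given) and the build hg38. Positions came from rtsSeeker, per the name column in the deposited tables, and its filters are not given in the sources used here. The deposited Terminator tables of both HCT116 populations hold whole counts. In the others the deposited values are expected counts, rounded here for the fits. The authors' RPM, stop reads scaled to a common library total, gave each library's total. The 6 control columns of the HCT116 tables with CMC alone matched no library's scale and were not used.

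Fits used edgeR 4.0.16 in R 4.3.3 (glmQLFit, glmQLFTest), with DESeq2 1.42.0 as an alternative, and Benjamini-Hochberg adjustment over all tested features. Levels were covering reads summed per gene over positions listed in all 4 Terminator tables, with TMM and at least 10 reads in at least 2 libraries, called at an adjusted p under 0.05. Stop fits used library totals, the replicate number as a block and, for "against coverage", log covering reads as offset, and a call also needed a fold of 2. The SE is the log2 difference over the square root of F. Same-numbered libraries deviated together (r of 0.149 to 0.449 for stops, 0.651 and 0.567 for levels), but with 2 pairs and no label that pairs wild type with knockdown this does not establish a pairing. Tests were checked on simulated data.

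The genes, lists and naming rule were chosen with earlier results of these data known. 1 gene of the cholesterol list is not reported here. Named positions are those called (the 10 with the lowest p in each comparison), the U with the highest Terminator stop share and the positions of highest and lowest coverage of each gene. Wilson intervals (95%) of read shares cover counting error only, since PCR copies cannot be told from separate molecules.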

Additional observations from a re-analysis of the deposited data

How the results depend on the processing

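The level differences of SCD and FASN stayed below 0 under every setting run. The sign of a fitted stop difference was not the same by library totals and against coverage at 6 of 49 positions in HCT116-shDKC1 and 5 of 49 in HCT116, none of them called by library totals, at 2 of 102 in HEK293T with Terminator against no CMC and at 25 of 102 against CMC alone, 1 of them called by library totals. SCD U 242 in HCT116 was -0.20 by library totals and 1.02, called, against coverage. The SCD level with Terminator was -0.88 with library totals, -0.84 in DESeq2 and -0.85 with a replicate block, each past the threshold that -0.85 in edgeR with TMM missed, and -0.96 on positions of replicate number 1. It ran from -0.91 to -0.78 when a library was left out. FASN with Terminator ran from -0.59 to -0.45 and passed under no setting. Without CMC, library totals gave -0.79 for SCD and -0.56 for FASN, the tables of replicate number 2 -0.89 for SCD and those of number 1 -0.50 for FASN. Leaving out a library gave -0.85 to -0.82 for SCD and -0.64 to -0.58 for FASN. Calls of stops in HCT116-shDKC1 were 20, with 10 under TMM, 31 against coverage, 0 in DESeq2, 32 without a filter and 10 to 21 with a library left out. In HCT116 they were 23, with 12 under TMM, 0 in DESeq2, which gave 2 of 49 an adjusted p, 37 without a filter and 12 to 23 with a library left out. Without the replicate block they were 19 in HCT116-shDKC1 and 23 in HCT116. In HEK293T, Terminator against no CMC gave 74, with 0 under TMM, 12 against coverage, 14 against coverage with no replicate block and 12 to 77 with a library left out. Terminator against CMC gave 25, all higher, with 1 under TMM (an SCD position, lower, and 0 higher), 0 against coverage with or without the replicate block and 1 to 25 with a library left out. The cause of these shifts was not tested. The share of all positions called is given above only for library totals, coverage, TMM and DESeq2. For gene levels the share of all genes is given only for TMM and DESeq2. Values under the other settings, including those with a library left out, have no such background to be read against. The interaction and CMC alone gave 0 under every setting run, and for CMC alone nothing is read from this, for the reasons given above. The combined setting of coverage and no block, and the tables by replicate number, were chosen after seeing the data. DESeq2 gave no SCD or FASN position an adjusted p in HEK293T.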

Other observations

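In the HCT116 libraries with CMC alone, whose controls were not used, the U of FASN with the highest stop share was 7605, at chr17:82079074, with 40.5% and 35.7%. SCD U 4901 stood at 22.4% and 25.8%. Of the SCD U in the PUS7 motif, position 1299 stood at 17.1% and 9.51%, 2334 at 6.83% and 7.85% and 3637 at 4.01% and 3.33%.

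In the RefSeq promoter window of SCD (GRCh38.p14, chr10:100346983-100347282), read on both strands, the CCAAT box CCAAT occurs 2 times and the GC box GGGCGG 2 times. The window is set on a later start site than that of ENST00000370355.2, which begins at chr10:100347124. Part of the window therefore lies within that transcript, with the 2 GC boxes (chr10:100347200-100347205 and chr10:100347222-100347227). The 2 CCAAT boxes lie before it. At least 1 CCAAT stands in 34.6% of 35116 promoters of the same length and at least 1 GGGCGG in 45%. Neither the E-box CACGTG nor the sterol response element TCACNCCAC stands in the SCD window, where 7.26% and 1.13% of promoters hold them. A match is a description of letters, not of binding, and the absence of a match says only that these letters are not in this window.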
